A study of Mus musculus with 20 samples.

Results

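Period and cryptochrome genes encode the repressors of the mammalian circadian clock. The 5 genes described here are Per1, Per2, Per3, Cry1 and Cry2, taken from the deposited table by symbol alone, and they are 5 of its 21844 genes. RNA was sequenced from mouse hindlimb muscle in 20 libraries, 5 in each of 4 groups. All animals, controls included, are labelled Cre+:iMSBmal1 fl/fl, that is with a Cre recombinase and a floxed Bmal1 gene, so no group has wild-type Bmal1 alleles. The vehicle sedentary group is labelled as vehicle without exercise and the knockout sedentary group as iMSBmal1KO without exercise. The vehicle trained and knockout trained groups carry the same treatments with exercise training, which was daily treadmill running for 6 weeks per the series design. The study asked what loss of Bmal1 in muscle changes, with and without training.

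The labels disagree in 2 places. The sample source names the gastrocnemius and a tissue field the tibialis anterior, and collection is given as 48 hours in the labels and 47 hours after the last bout in the design. The promoter that drives Cre, the agent that induces it, the age and sex of the mice and the hour of collection are not given in the sources used here. The labels give all samples the same collection time, and whether they share a clock hour is not given. For a gene that oscillates, a change of phase and a change of mean level therefore cannot be told apart. In whole muscle, fewer cells of a type and less RNA per cell cannot be told apart either.

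BMAL1 pairs with CLOCK or NPAS2 and binds E-box elements near the Per and Cry genes to activate them. PER and CRY proteins accumulate, enter the nucleus together and block that activation, which closes a daily feedback loop. CRY1 and CRY2 bind the activator complex directly, PER1 and PER2 carry CRY proteins to it and are modified by casein kinase 1, and PER3 has a weaker part in the loop. The genes also have inputs of their own: Per1 is induced by glucocorticoid and cAMP signals, Cry1 is timed by the REV-ERB repressors as well, and Per3 carries D-box elements read by DBP, TEF and HLF.

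Letters of some of these elements were looked for in the promoters, though not those of glucocorticoid or REV-ERB and ROR elements. RefSeq promoter windows (GRCm38.p6, 250 bases before to 50 after a start) were matched for 4 of the 5 genes, all but Per2. Both strands were searched for the E-box CACGTG, the E-prime box CACGTT, the D-box spellings TTATGTAA and TTACGTAA and the cAMP response element TGACGTCA. The stretches around the matches follow, each read 5′ to 3′ on the strand of its gene. Capitals mark the matched letters, and AACGTG is CACGTT on the other strand.
Cry1, chr10:85185079-85185163, minus strand: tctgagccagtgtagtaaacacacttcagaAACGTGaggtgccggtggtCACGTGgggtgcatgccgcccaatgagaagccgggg
Cry2, chr2:92434200-92434265, minus strand: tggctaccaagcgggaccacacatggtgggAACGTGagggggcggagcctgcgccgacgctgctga
Per1, chr11:69098753-69098818, plus strand: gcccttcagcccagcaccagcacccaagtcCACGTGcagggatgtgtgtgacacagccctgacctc
Per3, chr4:151044786-151044900, minus strand: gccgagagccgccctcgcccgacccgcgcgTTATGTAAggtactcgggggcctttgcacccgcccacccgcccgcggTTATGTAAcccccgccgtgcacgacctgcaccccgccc

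None of these stretches overlaps an annotated exon. Cry1 held both box types, with the E-box starting 60 bases and the E-prime box 79 bases upstream of the start. The Cry2 match was 166 bases upstream, the Per1 E-box 166 bases upstream of the first of its listed starts and the Per3 D-boxes 205 and 158 bases upstream. The Per1 window from 69098699 to 69098998 held the E-box, and the one from 69099902 to 69100201 held no match. Both lie inside the gene as annotated in GENCODE M21, which begins at 69095217. Over 32851 RefSeq windows of the same length, 7.15% held the E-box, 4.68% the E-prime box and 0.938% the D-box TTATGTAA. TTACGTAA (0.119% of windows) and TGACGTCA (1.79%) were in no window of the 4 genes. A match of letters describes the sequence and not binding.

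Library totals ran from 10610333 to 19153527 estimated counts, and all 5 genes passed the filter on low counts. Levels are given in CPM, the usual depth-scaled count of a gene. Knockout trained libraries 1 and 4, and likewise 3 and 5, differed far less than any other pair of libraries (2.38 and 1.75 times the counting variance for genes with 1000 to 10000 counts, against at least 6.38 times), and each pair was counted as 1 sample, which leaves n = 3 in that group. Markers of skeletal muscle were abundant in every sample, at 61234 to 102413 CPM summed over 12 genes. Vehicle trained library 2 stood apart: 3689 of 14359 genes were over 2-fold from the mean of its group's other samples, on log2(CPM + 1). In any other sample at most 476 genes were that far from the rest of its group. The tests of the members are given with and without library 2. Nothing in the labels says that the samples of a group came from separate animals, so the tests measure the spread between these samples.

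The targeted gene went against its labels. Arntl is the symbol of Bmal1 in the files. Its mean was 6.79 ± 0.890 CPM (SD, n = 5) over vehicle sedentary and 13.2 ± 3.28 CPM (SD, n = 5) over knockout sedentary libraries. Each knockout library exceeded each vehicle one, for which exact permutation, two-sided, gave its lowest possible p of 0.00794. Trained vehicle samples other than library 2 had a mean of 6.45 ± 0.156 CPM (SD, n = 4), and the knockout trained ones 10.9 ± 4.45 CPM (SD, n = 3). Library 2 itself was at 132.3 CPM. The fitted log2 change of Arntl was 0.91 in sedentary muscle (edgeR adjusted p = 0.886) and -1.57 in trained muscle (edgeR adjusted p = 0.372), and without library 2 it was 0.92 (edgeR adjusted p = 0.00115) and 0.81 (edgeR adjusted p = 0.0148). Which exons the deletion removes is not given in the sources used here, so a count over the whole gene may not read it. "Knockout" below means the libraries labelled knockout, and every direction rests on that label.

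In sedentary muscle labelled knockout, Per2 and Per3 stood at less of their vehicle level than the other members, with fitted levels of 47.1% and 47.4%. Per1 stood at 60.1% and Cry2 at 62.9%, and Cry1 at 103.4%. For 4 of the 5 genes (Per1, Per2, Per3 and Cry2) vehicle and knockout samples had no overlap, where 9.40% of all tested genes did not overlap. With all 18 samples in the fit only Per2 passed, 1 of 5 genes, where 2.33% of all tested genes passed in either direction, 1.02% higher and 1.31% lower. Vehicle trained library 2 is no sedentary sample, but it enters the shared estimate of spread, and when it was left out the same 4 genes passed, where 6.98% of tested genes passed and 3.84% were lower.

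**Figure D1:**
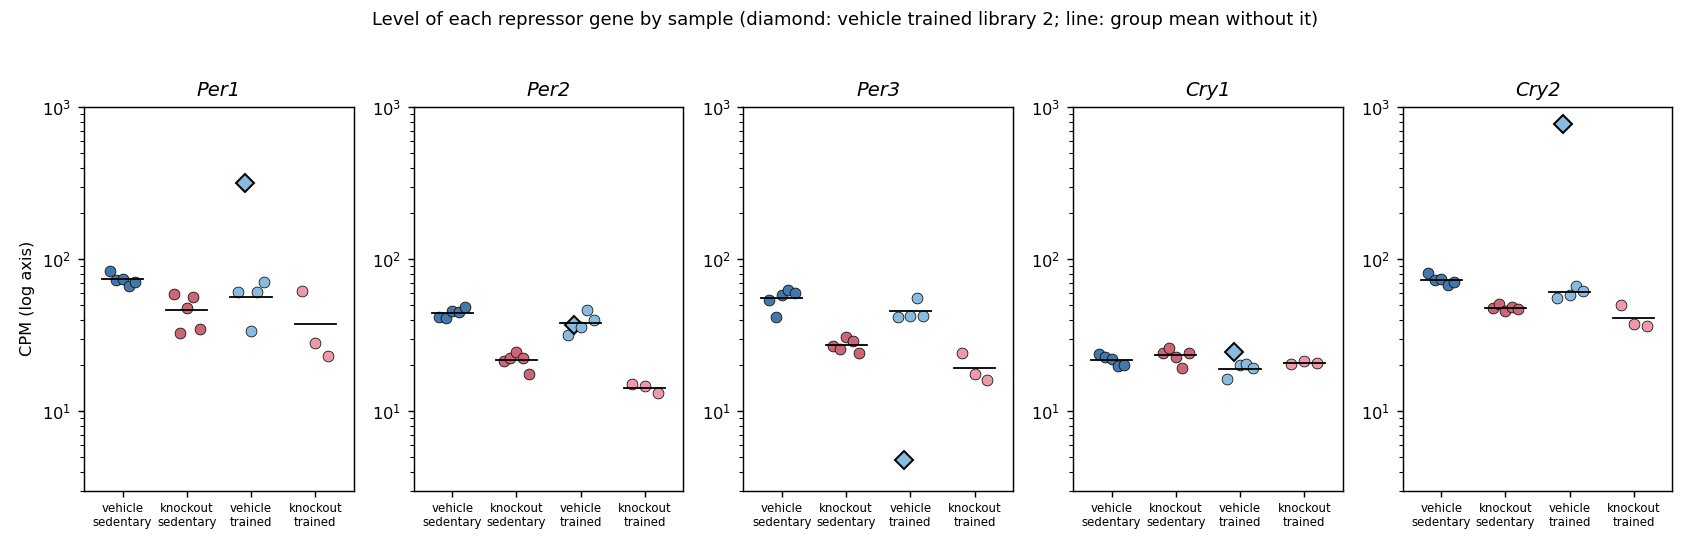
Each point is 1 sample, with CPM on a log axis for each of the 5 genes in the 4 groups; lines are group means without vehicle trained library 2, which is drawn as a diamond. Per2, Per3 and Cry2 of the sedentary groups do not overlap, Cry1 lies between 16.3 and 25.8 CPM in all samples, and the diamond is far off for Per1 (318 CPM), Cry2 (777 CPM) and Per3 (4.76 CPM).

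Per2 (ENSMUSG00000055866, chromosome 1, 91415982 to 91459324, minus strand, GRCm38), a scaffold of the repressor complex, separated the genotypes in both training states. Vehicle sedentary libraries 1 to 5 held 41.5, 40.7, 45.4, 44.5 and 48.1 CPM, and knockout sedentary libraries 21.3, 22.3, 24.4, 22.5 and 17.5 CPM. Vehicle trained libraries held 31.5, 36.6, 35.5, 46.1 and 39.5 CPM, and the 3 knockout trained samples 15.2, 14.5 and 13.1 CPM. Every sample labelled knockout lay below every vehicle sample, and library 2 of the vehicle trained group lay inside its group. In sedentary muscle Per2 fell by 1.09 on the log2 scale (SE 0.104, edgeR adjusted p = 4.64e-06), from 44.0 ± 3.00 to 21.6 ± 2.54 CPM (SD, n = 5 each). In trained muscle it fell by 1.37 (SE 0.126, edgeR adjusted p = 7.77e-06), from 37.8 ± 5.44 CPM (SD, n = 5) to 14.3 ± 1.05 CPM (SD, n = 3), and it ranked 4 of 14359 genes by p. Both calls held in each of the 26 alternatives run with library 2 and in each of those run without it.

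Per3 (ENSMUSG00000028957, chromosome 4, 151003652 to 151044665, minus strand), with D-box letters in its promoter window, showed a difference close to that of Per2. Vehicle sedentary libraries held 53.5, 41.4, 58.0, 62.2 and 60.2 CPM, and knockout sedentary libraries 26.7, 25.6, 30.6, 28.9 and 24.0 CPM. Vehicle trained libraries held 41.8, 4.76, 42.0, 55.7 and 42.5 CPM, and the knockout trained samples 24.0, 17.5 and 15.9 CPM. Library 2 held the lowest Per3 level of all samples, below even those labelled knockout, and without it the groups were apart in both training states. The sedentary log2 change was -1.08 with SE 0.353 (edgeR adjusted p = 0.167). Without library 2 it was -1.07 with SE 0.114 (edgeR adjusted p = 4.37e-06). In trained muscle it was -0.91 with SE 0.418 (edgeR adjusted p = 0.271), and -1.19 with SE 0.141 without library 2 (edgeR adjusted p = 2.37e-05). The size of the sedentary change moved little, while its standard error was 0.353 with library 2 and 0.114 without it.

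Per1 (ENSMUSG00000020893, chromosome 11, 69095217 to 69109960, plus strand), the hormone and cAMP responsive member, spread widely between samples labelled knockout. Vehicle sedentary libraries held 84.0, 72.8, 73.4, 66.4 and 70.7 CPM, and knockout sedentary libraries 59.1, 32.4, 47.6, 56.0 and 34.8 CPM. Vehicle trained libraries held 60.4, 318, 33.7, 60.9 and 71.2 CPM, and the knockout trained samples 61.6, 28.2 and 22.9 CPM. The sedentary groups were apart, with 59.1 CPM as the highest knockout and 66.4 CPM as the lowest vehicle value, and the trained groups overlapped. The spread was 8.85% of the mean in vehicle sedentary samples (coefficient of variation) and 26.2% in knockout sedentary samples, where the other 4 genes had 4.31% to 11.8%. The sedentary log2 change was -0.73 with SE 0.463 (edgeR adjusted p = 0.749), and -0.73 with SE 0.218 without library 2 (edgeR adjusted p = 0.0499). Run without library 2, limma on log2(CPM + 1), scaled by library total alone, gave an adjusted p of 0.0878 for it. This call therefore turned on the test and the scaling. In trained muscle the change was -1.56 (edgeR adjusted p = 0.156), and -0.54 with SE 0.265 without library 2 (edgeR adjusted p = 0.238), so most of the first value came with that 1 sample.

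Cry2 (ENSMUSG00000068742, chromosome 2, 92403646 to 92434043, minus strand), a direct inhibitor of the activator complex, was the member with the narrowest knockout sedentary values. Vehicle sedentary libraries held 80.7, 72.4, 74.2, 67.2 and 70.9 CPM, and knockout sedentary libraries 47.5, 51.0, 45.3, 48.1 and 47.2 CPM. Vehicle trained libraries held 55.4, 777, 58.3, 66.6 and 61.5 CPM, and the knockout trained samples 49.9, 37.2 and 36.3 CPM. No knockout sample reached any vehicle sample of the same training state, with or without library 2. The sedentary log2 change was -0.67 with SE 0.603 (edgeR adjusted p = 0.914), and -0.66 with SE 0.0792 without library 2 (edgeR adjusted p = 1.66e-05). The trained log2 change was -2.33 with SE 0.765 (edgeR adjusted p = 0.113), and -0.50 with SE 0.0963 without library 2 (edgeR adjusted p = 0.00282). Without library 2 this trained call held in 4 of 5 alternatives and missed in the fit of the 2 trained groups alone (edgeR adjusted p = 0.0594). A stretch of 149 exon bases of Cry2 is shared with the antisense gene D930015M05Rik, which had a mean of 0.279 CPM.

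Cry1 (ENSMUSG00000020038, chromosome 10, 85131700 to 85185064, minus strand), the other cryptochrome, did not separate any pair of groups. Vehicle sedentary libraries held 23.6, 22.8, 21.9, 19.9 and 20.04 CPM, and knockout sedentary libraries 24.2, 25.8, 22.9, 19.3 and 24.0 CPM. Vehicle trained libraries held 16.3, 24.4, 19.996, 20.6 and 19.1 CPM, and the knockout trained samples 20.4, 21.3 and 20.8 CPM. High and low values were mixed across the groups, and library 2 was at most 1.29-fold above the mean of the other 4. The sedentary log2 change was 0.05 (95% interval -0.21 to 0.30, edgeR adjusted p = 0.996). Without library 2 it was 0.06 (95% interval -0.15 to 0.26, edgeR adjusted p = 0.851), so a fall of the size seen for Cry2 lay outside the interval. The trained change was 0.09 (95% interval -0.20 to 0.38, edgeR adjusted p = 0.791), and 0.20 without library 2 (95% interval -0.04 to 0.44, edgeR adjusted p = 0.335).

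In trained muscle as a whole, 1 of the 5 genes passed with all samples, where 3.29% of tested genes passed in either direction, 1.99% higher and 1.30% lower. Per2 and Cry2 did not overlap between the trained groups, 2 of 5 genes against 7.95% of all tested genes. Without library 2, 3 of 5 passed (Per2, Per3 and Cry2), where 8.66% of tested genes passed and 3.65% were lower. The exact permutation test of each gene's log2(CPM + 1), two-sided, shares no spread between groups or genes. In sedentary muscle this exact test gave p = 0.00794, its lowest possible value, for Per1, Per2, Per3 and Cry2, and p = 0.262 for Cry1 (Benjamini-Hochberg adjusted over 20 tests, 0.0397 for the 4 genes and 0.374 for Cry1). In trained muscle no adjusted value of this test was under 0.102, and with 3 samples against 5 its smallest p is 0.0357.

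**Figure D2:**
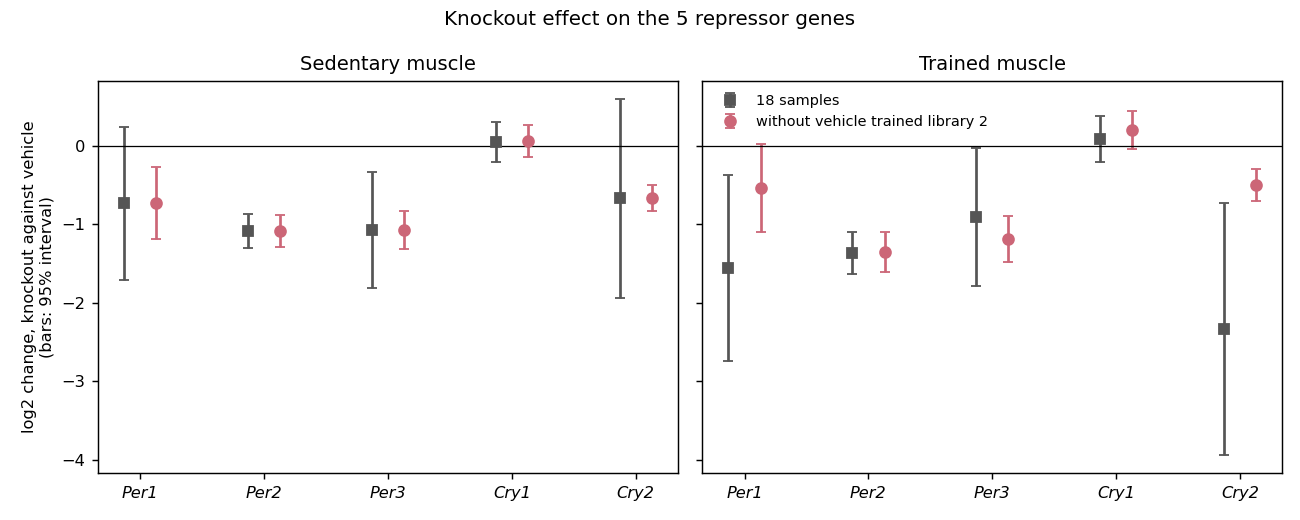
Points are fitted log2 changes (libraries labelled knockout against vehicle, edgeR) with 95% intervals, in sedentary (left) and trained muscle (right), from the fit with 18 samples (grey squares) and the fit without vehicle trained library 2 (red circles). The sedentary estimates coincide in both fits while the intervals of Per1, Per3 and Cry2 shrink, and in trained muscle Per1 and Cry2 move towards 0.

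Levels of different genes can be compared per length. Dividing CPM by the exonic length in the GENCODE M21 annotation (GRCm38), which may not be the one used for counting, gave lengths of 5.631 kb for Per1, 5.856 kb for Per2, 9.608 kb for Per3, 3.34 kb for Cry1 and 6.32 kb for Cry2. In vehicle sedentary muscle the order was Per1 (13.05 ± 1.16 CPM per kb), Cry2 (11.6 ± 0.790), Per2 (7.52 ± 0.513), Cry1 (6.48 ± 0.496) and Per3 (5.73 ± 0.864), each with SD and n = 5. Of these neighbours only Cry2 and Per2 had ranges that did not overlap.

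In knockout sedentary muscle Cry1 stood above Per2 in this order, with Per1 at 8.17 ± 2.14, Cry2 at 7.56 ± 0.326, Cry1 at 6.96 ± 0.735, Per2 at 3.69 ± 0.434 and Per3 at 2.83 ± 0.275 CPM per kb (SD, n = 5). The first 3 overlapped one another, and the lowest Cry1 sample (5.78) lay above the highest Per2 sample (4.17). Knockout trained samples had the same order, from Per1 at 6.67 ± 3.73 to Per3 at 1.99 ± 0.445 CPM per kb (SD, n = 3). Summed over the 5 genes, the mean level was 44.3 CPM per kb in vehicle sedentary, 29.2 in knockout sedentary and 23.8 in knockout trained samples. In vehicle trained samples it was 67.9 with library 2 and 36.5 without it. These sums use CPM scaled by library total alone, unlike the fitted changes. From knockout sedentary to knockout trained samples mean Cry1 went from 23.2 to 20.8 CPM, while its fitted log2 change was -0.02. The sums are therefore not read as a training difference. Cry1 made up 35.9% of the summed cryptochrome level in vehicle sedentary and 47.9% in knockout sedentary samples. In trained samples its share was 48.9% in the knockout group, and in the vehicle group 15.7% with library 2 and 37.3% without it.

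**Figure D3:**
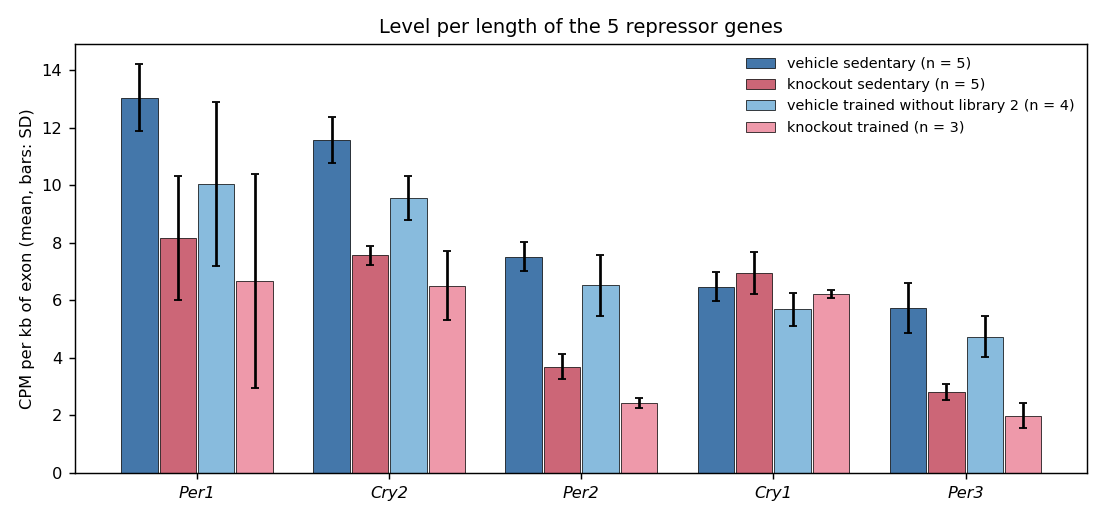
Bars are group means of CPM per kb of exon with SD, for the 5 genes in their vehicle sedentary order; vehicle trained library 2 is left out. Cry1 is level across the groups. The mean of Per2 lies below that of Cry1 only in the knockout groups, and the mean of Per3 lies below it in every group.

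A ratio of 2 family members within a sample does not depend on library scaling. The log2 ratio of Cry1 to Cry2 (CPM) was -1.76 ± 0.0569 in vehicle sedentary and -1.05 ± 0.151 in knockout sedentary samples (SD, n = 5 each). The groups did not overlap, with a difference of 0.71 (two-sided exact permutation, lowest possible p = 0.00794, and 0.127 adjusted over 16 ratio tests). In trained muscle the difference was 1.37, and 0.71 without library 2, when the ratio was -1.67 ± 0.0952 in vehicle (SD, n = 4) and -0.97 ± 0.282 in knockout samples (SD, n = 3). That last difference also had no overlap (two-sided exact permutation, lowest possible p = 0.0571). No ratio passed after adjustment over the 16 tests, and a single test at its lowest possible p cannot pass it.

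The log2 ratio of Per3 to Per2 was 0.31 ± 0.171 in vehicle sedentary and 0.33 ± 0.0900 in knockout sedentary samples (SD, n = 5 each), a difference of 0.02 (exact permutation test, two-sided, p = 0.857). In trained muscle without library 2 it was 0.26 ± 0.124 (SD, n = 4) and 0.40 ± 0.223 (SD, n = 3), and over these 17 samples it lay between 0.02 and 0.66. Per1 to Per2 differed by 0.32 in sedentary muscle (exact permutation test, two-sided, p = 0.151), with overlapping groups.

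**Figure D4:**
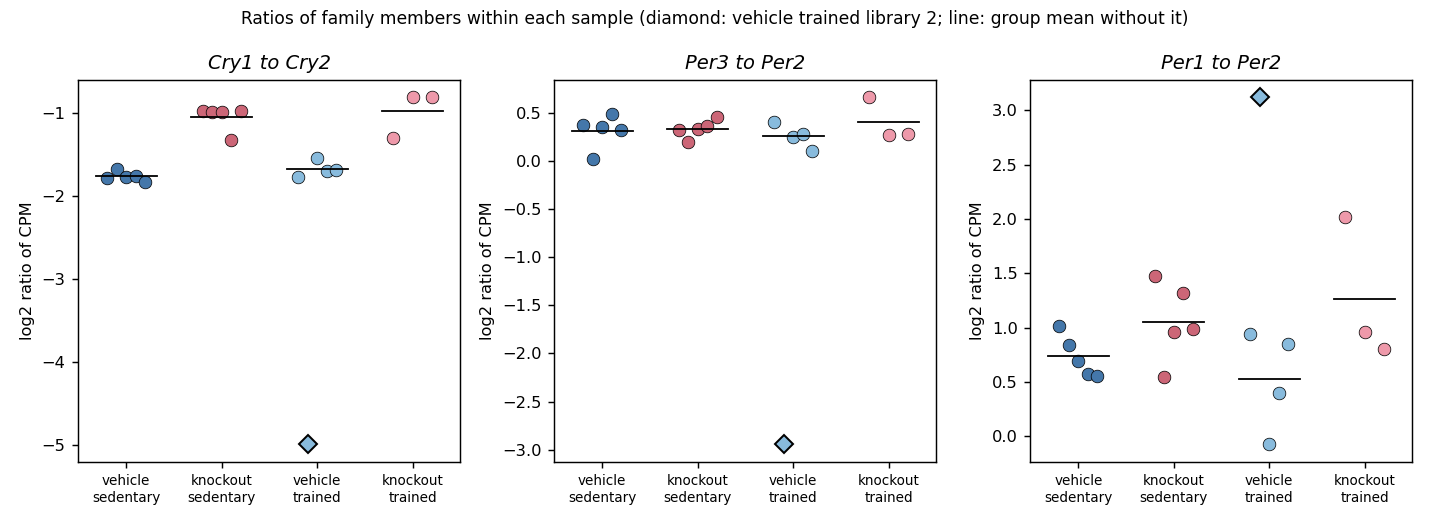
Points are log2 ratios of CPM within each sample, for Cry1 to Cry2, Per3 to Per2 and Per1 to Per2, with group means as lines and vehicle trained library 2 as a diamond. The Cry1 to Cry2 ratio lies higher in both knockout groups without overlap, and the Per3 to Per2 ratio stays between 0.02 and 0.66 outside the diamond.

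With edgeR, training gave no called change in any of the 5 genes. In vehicle muscle 0 of 14359 genes passed (edgeR, 0% called), 2186 (15.2%) had an unadjusted p under 0.05, and DESeq2 called 15. Among the members the changes with and without library 2 were 0.65 and -0.36 for Per1, -0.18 and -0.18 for Per2, -0.54 and -0.25 for Per3, -0.06 and -0.15 for Cry1 and 1.58 and -0.24 for Cry2, all on the log2 scale. So Per1 and Cry2 changed sign with 1 sample, and none of the 5 had groups without overlap, where 2.98% of all tested genes did. Without library 2 the 4 remaining Cry2 values ran from 55.4 to 66.6 CPM and the 5 sedentary ones from 67.2 to 80.7 CPM (edgeR adjusted p = 0.357). How many of all tested genes were apart without library 2 was not counted, so nothing is read from this narrow gap. The exact permutation test, two-sided, gave p = 0.0159 for the same Cry2 difference, the smallest possible with 4 against 5 samples, and 0.0635 adjusted over 20 tests.

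In muscle labelled knockout, Per2 was the member nearest to a training difference. All 3 trained samples (13.1 to 15.2 CPM) lay below all 5 sedentary ones (17.5 to 24.4 CPM), 1 of 5 genes without overlap where 11.9% of all tested genes had none. The log2 change was -0.46 with SE 0.122 (unadjusted p = 0.00148, edgeR adjusted p = 0.175), and -0.45 without library 2 (edgeR adjusted p = 0.0605, where 0.843% of tested genes passed). The call turned on the test and the scaling. DESeq2 gave an adjusted p of 0.0273. Without library 2 DESeq2 gave 0.0148, limma 0.0268 and edgeR with a replicate block and the 20 libraries kept separate 0.0361. Limma was run on CPM scaled by library total alone, so it differed from the edgeR fit in scaling as well as in test. Over all tested genes, 0 passed with edgeR (0% called), 1394 (9.71%) had an unadjusted p under 0.05, and DESeq2 called 198. The other 4 members had log2 changes of -0.18 (Per1), -0.37 (Per3), -0.02 (Cry1) and -0.08 (Cry2), with edgeR adjusted p from 0.909 to 0.996.

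Whether the knockout difference depended on training was tested as an interaction. No gene passed (edgeR, 0% called, with 1076 genes (7.49%) at an unadjusted p under 0.05, and 26 called by DESeq2). The smallest unadjusted p among the members was 0.0922 for Cry2, whose interaction of -1.67 became 0.17 without library 2. For Per2 the interaction was -0.28 with SE 0.158 (edgeR adjusted p = 0.695), and -0.27 without library 2 (95% interval -0.59 to 0.05, edgeR adjusted p = 0.516).

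The other clock genes give the setting of these changes. In the positive arm, 2 of 4 tested genes rose in sedentary muscle and 0 fell: Clock, the partner of BMAL1, by 1.20 on the log2 scale (edgeR adjusted p = 0.000166), and Npas2, its paralog, by 3.05 (edgeR adjusted p = 0.0145). Npas2 passed the filter on low counts through the knockout groups, with all 10 of their libraries but 1 of the 10 vehicle libraries at 1 CPM or more (0 to 0.731 CPM in vehicle sedentary and 1.80 to 4.06 CPM in knockout sedentary libraries), so its rise adds no support to the count of this list. Of 4 REV-ERB and ROR genes Nr1d2, a REV-ERB repressor, fell by 1.24 (edgeR adjusted p = 1.95e-05). Of 4 D-box factors Dbp fell by 1.77 and Tef by 1.03 (edgeR adjusted p = 0.0415 and 1.03e-05), and of 3 other E-box repressors Ciart fell by 2.00 and Bhlhe40 by 1.11 (edgeR adjusted p = 0.00660 and 0.0135). In trained muscle Clock rose, and Nr1d2, Rora, Tef and Bhlhe40 fell. Without library 2 the sedentary counts were 3 higher of 4 for the positive arm, 3 lower of 4 for REV-ERB and ROR genes, 1 higher and 3 lower of 4 for D-box factors, and 2 lower of 3 for E-box repressors. The positive arm holds Arntl, the targeted gene, whose count may not read the deletion, and Npas2 with the limit above. Its count is therefore not read as a result. These lists are of known clock genes. Their sedentary counts stand beside 2.33% of all tested genes called with library 2, and 6.98% called and 3.84% lower without it. In trained muscle 3.29% were called with library 2.

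Genes that act on the PER and CRY proteins are a separate group of lists. Of 14 kinases and phosphatases, among them casein kinase 1, 0 passed with edgeR in sedentary or trained muscle (1 and 2 at an unadjusted p under 0.05), and their median log2 change was -0.03 in both, next to 0.01 and -0.03 over all tested genes. Of 10 tested ubiquitin enzymes, 1 passed in sedentary muscle: Usp2, a deubiquitinase that acts on PER1, fell by 1.15 (SE 0.215, edgeR adjusted p = 0.00448). Over all tested genes 2.33% passed in that comparison. Of 14 partners of the repressor complex 0 passed in either state with edgeR (1 in sedentary and 3 in trained muscle at an unadjusted p under 0.05). Without library 2, 1 kinase (Csnk1e, log2 change -0.50, edgeR adjusted p = 0.000638) and 1 partner (Cipc, -0.39, edgeR adjusted p = 0.0327) passed in sedentary muscle. That is 1 of 14 in each list, near the 6.98% of all tested genes that passed, so it says nothing particular about these lists. In trained muscle Csnk1e (-0.37) and the casein kinase 2 subunit Csnk2b (0.47) passed, where 8.66% of all tested genes passed.

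The list of glucocorticoid, cAMP and early response genes, the signals known to induce Per1, has 22 genes and holds Per1 itself. In sedentary muscle 0 passed with edgeR (1 at an unadjusted p under 0.05) and the median log2 change was -0.13. In trained muscle Fkbp5 and Tsc22d3, both glucocorticoid targets, fell by 1.52 and 1.13 (edgeR adjusted p = 0.0438 and 0.0404), where 3.29% of all tested genes passed. There 12 of the 22 had an edgeR unadjusted p under 0.05, with a median log2 change of -1.09. For scale, Per3 had an edgeR unadjusted p of 0.0426 there and ranked 2257 of 14359 genes. The share of all tested genes under 0.05 was not counted for the knockout comparisons. Without library 2 Fkbp5 and Tsc22d3 still passed, with log2 changes of -0.90 and -0.73 (edgeR adjusted p = 0.00758 and 0.00841), where 8.66% of all tested genes passed. The median of the list was then 0.03. Markers of other cell types did not separate the sedentary groups: in the 8 marker lists 0 genes passed with all samples (edgeR), and without library 2 a single gene rose in each of the muscle, satellite cell and fibroblast lists. Over all tested genes 6.98% passed in the sedentary comparison without library 2. The summed adipocyte markers ran from 225 to 470.4 CPM in vehicle and from 309 to 388 CPM in knockout samples. Macrophage markers summed to 45.8 to 199 CPM in vehicle sedentary and 72.8 to 213 CPM in knockout sedentary samples. Satellite cell markers summed to 23.1 to 30.9 CPM and 30.1 to 35.0 CPM in the same groups. In trained muscle macrophage markers summed to 139 to 340.0 CPM in vehicle and 47.0 to 267 CPM in knockout samples, with 3 of 6 at an unadjusted p under 0.05 for the knockout difference and 6 of 6 for training in vehicle muscle (median log2 change 1.08, and 0.88 without library 2). For training in knockout muscle 3 of 5 blood and 2 of 7 adipocyte markers were at an unadjusted p under 0.05, with median log2 changes of 0.98 and 1.26. Blood markers summed to 429, 2893 and 781 CPM in the knockout trained samples and 348 to 843 CPM in knockout sedentary ones. Adipocyte markers summed to 379, 721 and 489 CPM and 309 to 388 CPM in the same groups. Knockout trained sample 2 was the highest for both lists. Over all tested genes, 15.2% were at an unadjusted p under 0.05 for training in vehicle muscle and 9.71% for training in knockout muscle. For the knockout difference in trained muscle that share was not counted, so nothing is read from the 3 of 6 macrophage markers. No marker passed in these comparisons after adjustment with all samples (edgeR). The part of these markers in the results was not tested.

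Genes whose pattern over samples was most like each member were found over 17 samples, without library 2, as the smallest root mean square difference of log2(CPM + 1) after each gene's own mean was subtracted. Genes picked in this way share the member's pattern by selection. Their levels below describe them and add no separate support. Among 14358 other genes the nearest to Per2 was Per3 (0.134), followed by Nr1d2 (0.143) and Vps13a (0.160), and with a pseudocount of 0.1 Nr1d2 came first. The nearest to Per3 was Per2 (0.134), then Tef (0.170) and Vps13a (0.187). In the sedentary groups Vps13a had 39.0 ± 1.54 CPM with vehicle and 16.99 ± 0.900 CPM with knockout (SD, n = 5 each). For scale, the SD of Per2 itself over these samples was 0.63.

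The nearest genes to Cry2 were Mtus1 (0.0622), Rhpn2 (0.0951) and Kif21a (0.104), with Nr1d1 at rank 20. Mtus1, a microtubule-associated gene, went from 188 ± 14.5 CPM with vehicle to 128 ± 5.13 CPM with knockout in sedentary muscle (SD, n = 5 each). Cry2 was nearer to none of the Period genes than rank 2561. Per1 was nearest to Tekt1 (0.220), Prickle3 (0.292) and Stk35 (0.294), and Cry1 to Ccdc43 (0.0754), Sec22b (0.0815) and Ciao1 (0.0832), genes whose level was as even as its own. From Cry1, the other members stood at ranks 11153 (Cry2) to 14056 (Per2) of 14358. With library 2 included, Per3 stood at rank 9343 from Per2, at 0.703, and the nearest gene to Per2 was Nr1d2 (0.168). The nearest genes to Cry2 were then Ppargc1a, Foxo1 and Slc25a33.

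Vehicle trained library 2 split the family. Against the mean of the other 4 vehicle trained libraries, Cry2 was 12.8-fold higher (777 and 60.5 CPM) and Per1 5.63-fold higher (318 and 56.5 CPM). Per3 stood at 4.76 CPM where the others had a mean of 45.5 CPM. Per2 (36.6 and 38.2 CPM) and Cry1 (24.4 and 18.98 CPM) stayed within 1.29-fold. Paralogs thus moved apart in this sample: the log2 ratio of Per3 to Per2 was -2.94, that of Cry1 to Cry2 -4.99 and that of Per1 to Per3 6.06.

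In the same library 19 of the 22 glucocorticoid, cAMP and early response genes, Per1 among them, were over 2-fold higher than in the other 4, with a median log2 difference of 2.33. Of all tested genes, 9.97% were over 2-fold higher and 15.7% over 2-fold lower in it. The 3 that were not, named here after their values were seen, were Jun, Crem and Dusp1. Of 15 tested genes of the other clock lists, Arntl (4.16) and Nfil3 (4.15) were furthest up and Dbp (-4.18) and Hlf (-2.33) furthest down on the log2(CPM + 1) scale. All 7 adipocyte markers, 3 of 5 fibroblast markers and 2 of 5 blood markers were over 2-fold lower, 2 of 6 macrophage markers over 2-fold higher, and muscle markers summed to 61234 CPM, next to 76305 to 94829 CPM in the other 4. Its total was not low, with 13 of the other libraries below it. The part of these differences in the levels of the members was not tested.

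**Figure D5:**
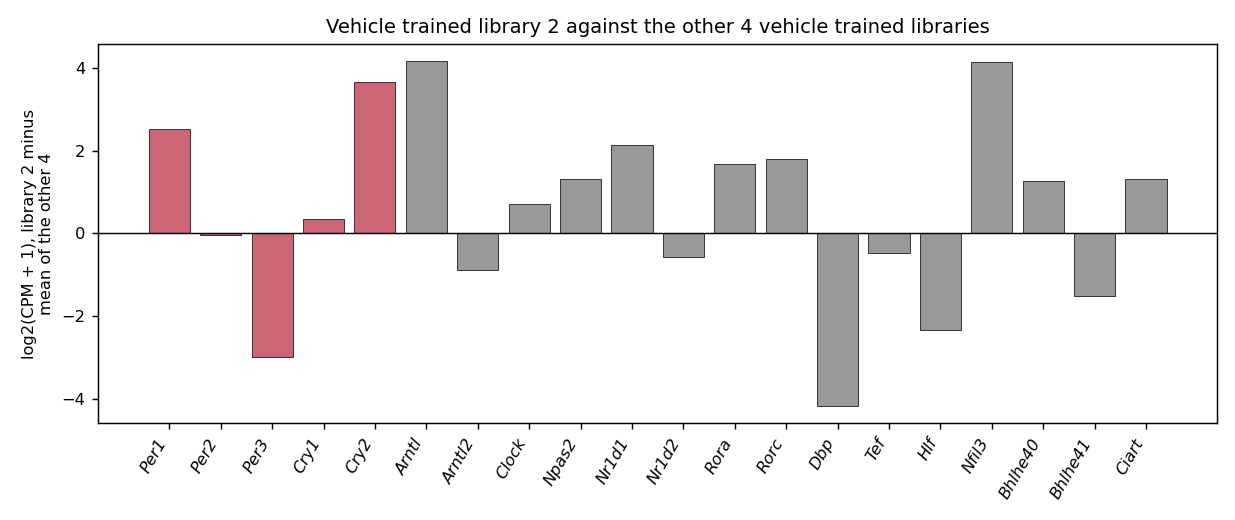
Bars are differences of log2(CPM + 1) between vehicle trained library 2 and the mean of the other 4 vehicle trained libraries, for the 5 repressor genes (red) and the tested genes of the other core clock lists (grey). Per1 and Cry2 lie above 0 with Arntl and Nfil3, Per3 lies below 0 with Dbp and Hlf, and Per2 and Cry1 are near 0.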

How the data were processed

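The members and the gene lists were chosen with earlier results of these data known. Per the labels' protocols RNA was extracted with Trizol and RNeasy columns and sequenced after an Illumina library kit. The values the authors deposited are named CPM but were read as estimated counts per gene. Of them 72.0% are whole numbers, and the libraries sum to between 10610333 and 19153527 and not to a shared total. The submitters' processing notes name Partek, STAR 2.7.8a, DESeq2, mm10 and GRCm39, without saying which build was counted. Counts were rounded to whole numbers. The knockout trained pairs 1 and 4, and 3 and 5, were summed, since their variance relative to counting variance was nearly as low for genes with 1000 to 10000 counts as for those with 10 to 100 (1.25 and 0.873 times, limit 1.5; at least 2.31 times in other pairs), which left 18 samples. Tests covered the 14359 of 21844 genes that reached 1 CPM in 5 or more of the 20 libraries.

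Differences were tested with edgeR 4.0.16 (TMM, quasi-likelihood, 4 group means) in R 4.3.3, with Benjamini-Hochberg adjustment over all tested genes and a threshold of 0.05. Single ratios and levels were tested by exact permutation, two-sided. On simulated data with 200 genes changed by 1 on the log2 scale among 14359, 172 were recovered with 6 false calls for the sedentary knockout comparison and 148 with 11 for the trained one. The changed genes were drawn only from mean levels well above the low-count filter, so recovery of genes just above that filter was not measured. No simulated sample stood apart as vehicle trained library 2 does. The recovery therefore does not measure how well changes of the members are found with that library in the fit. Alternatives were DESeq2 1.42.0, limma 3.58.1, other scalings and filters, the compared groups alone, the 20 libraries kept separate, a replicate block (with the 20 libraries separate) and each sample left out; runs combining these without vehicle trained library 2 were added after seeing the data. Shared replicate numbers did not pair the samples. Named genes were the members, Arntl, up to 4 genes with the largest change per list among those past the threshold, and the 3 genes nearest to each member.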

Additional observations from a re-analysis of the deposited data

Results flagged for a closer look

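A single sample far from the rest of its group was looked for in 30 sets of values, and 9 were found, where chance gives about 1 in 20 groups. Vehicle trained library 2 accounts for 7 of them. Its Per1 level was 318.4 CPM, its Per3 level 4.756 CPM, its Cry2 level 776.5 CPM and its Arntl level 132.3 CPM. Its log2 ratios were -2.94 for Per3 to Per2, 6.06 for Per1 to Per3 and -4.99 for Cry1 to Cry2. The other 2 lie in knockout sedentary samples: Arntl was at 18.87 CPM in library 1, where the median of the other 4 was 11.5 CPM, and the log2 ratio of Cry1 to Cry2 was -1.32 in library 4, where the median of the others was -0.98.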

How the results depend on the processing

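Per2 was called in both knockout comparisons under every alternative run. Leaving out 1 sample at a time gave 251 to 1002 genes and 1 to 4 members in sedentary muscle, 177 to 1244 genes and 1 to 3 members in trained muscle, 0 to 1 genes for training in vehicle and 0 to 397 for training in knockout muscle (45 without vehicle trained library 1, 121 without library 2, 397 without knockout trained sample 1 and 4). The trained count was 299 without knockout trained sample 2 and 177 without 3 and 5. Other tests gave, in sedentary muscle, 537 genes (DESeq2) and 1177 genes with 4 members (compared groups alone), and without library 2 1245 and 4 (DESeq2), 1016 and 3 (limma), 975 and 4 (replicate block with the 20 libraries separate). In trained muscle they gave 907 and 2 (DESeq2), 1225 and 3 (20 libraries separate) and 20 genes (compared groups alone), and without library 2 1616 and 3, 1118 and 3, 1944 and 3 in the same order of tools, and 2 members in the compared groups alone. Training in vehicle gave 15 genes (DESeq2), and without library 2 22, 1 and 1. Training in knockout gave 198 and 1 (DESeq2) and 49 (20 libraries separate), and without library 2 715, 463 and 160 with 1 member each, Per2. The interaction gave 26 genes (DESeq2), and 116 without library 2. The cause was not tested.

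The replicate numbers did not pair the samples: 11 of 30 same-numbered pairs had a correlation over 0.1 (median 0.0276). The summed samples carry no single number, so the block could be run only with the 20 libraries separate, which counts the near-identical knockout trained libraries as 5 samples. It called 336 genes in sedentary and 980 in trained muscle, with 1 member each, next to 373 and 1225 for separate libraries with no block.

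Signs turned as follows, on the log2 scale, with ranges over the single libraries left out. For training in vehicle they were -0.36 to 0.88 (Per1), -0.15 to 0.018 (Cry1) and -0.24 to 1.83 (Cry2). For training in knockout the range of Cry1 was -0.074 to 0.027. For the interaction they were -1.05 to 0.19 (Per1), -0.11 to 0.32 (Per3), -0.036 to 0.14 (Cry1) and -1.91 to 0.17 (Cry2). Ratio differences ran, for Per3 to Per2 in sedentary knockout, from -0.049 to 0.065, and for Per1 to Per2 from -0.067 to 0.73 (trained knockout) and -0.21 to 0.59 (training in vehicle). For Per1 to Per3 they ran from -1.01 to 0.59 and -0.16 to 1.44, and for Cry1 to Cry2 from -0.78 to 0.083 (training in vehicle) and -0.0028 to 0.097 (training in knockout). Without knockout trained sample 1 and 4, training in knockout gave 0.062 (Cry1) and ratio differences of -0.18 (Per1 to Per2), -0.058 (Per3 to Per2) and -0.12 (Per1 to Per3), and the trained knockout difference of Per1 to Per2 was -0.17. Without 3 and 5 it gave 0.064 (Per1) and -0.0035 (Cry1 to Cry2). Without library 2, the compared groups alone, DESeq2, limma and the block gave -0.35, -0.36, -0.42 and -0.44 for training in vehicle in Per1 and -0.23, -0.25, -0.27 and -0.24 in Cry2. For the interaction the last 3 gave 0.20, 0.044 and 0.28 (Per1), -0.10, -0.23 and -0.068 (Per3) and 0.18, 0.044 and 0.17 (Cry2), and limma with all samples gave -0.036 and, with the smaller pseudocount, -0.037 for Cry1.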
